A study of Mus musculus with 11 samples.

Results

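Broad ring peaks new in SA1-null cells are stretches of chromatin at which both SMC1 and SMC3, the paired arms of the cohesin ring, were called in mouse embryonic fibroblasts (MEFs) without SA1, and at which no cohesin subunit was called in wild-type MEFs. They were chosen from the deposited interval lists as SA1-null SMC3 intervals of 1000 bp or more that overlap an SA1-null SMC1 interval by at least 1 bp and overlap no interval of the wild-type SA1, SA2, SMC1 or SMC3 list. There were 532 of them, among 34802 intervals in the SA1-null SMC3 list and 163094 intervals in all 10 lists. The wild-type ring lists were shorter, with 15564 SMC3 and 24000 SMC1 intervals against 34802 and 47003 in SA1-null cells. A position without a wild-type interval is thus not shown to lack cohesin in wild-type cells. The choice used the presence of SMC1 and SMC3 in SA1-null cells, the SMC3 width and the absence from the wild-type lists. Those features are described here and not tested.

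The study mapped cohesin by chromatin immunoprecipitation and sequencing in untreated MEFs, which are primary cells grown from E12.5 embryos, on a mixed background given as C57BL/6 x 129 Sv. The SA1-null cells were immunoprecipitated for SA1, SA2, SMC1 and SMC3, and so were the wild-type cells. The labels name no allele and do not tell which samples share an embryo or a culture, so the intervals below cover counting alone. Of 11 samples, 2 are input DNA pooled over both genotypes. Each group has 1 list, and the SA1-null SMC1 list is named as 2 replicates together, so there was no replicate spread to measure and the genotypes could not be tested against each other. The SA1 antibody gave 177 intervals in SA1-null cells and 26602 in wild-type cells.

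Cohesin encircles DNA, holds sister chromatids together and forms chromatin loops. SMC1 and SMC3 are joined by a kleisin subunit, and an SA protein, either SA1 or SA2 in somatic cells, is bound to the kleisin. Much of cohesin in mammalian cells is found at sites bound by CTCF, where it gives narrow peaks in such maps, and other cohesin is found at active promoters and enhancers with its loader NIPBL. An interval's width in these lists is the length of the enriched stretch that the authors called, and the lists hold no height, score or read number. Depth is unknown, and it can move both the number and the width of intervals.

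No SA2 interval was called at the broad new peaks in SA1-null cells, in which SA2 is the remaining SA protein of the pair. The SA1-null SA2 list had an interval at 0 of the 532, which allows a share of up to 0.564% (3 counts of 532; 95% Wilson interval 0 to 0.717%). Over the whole SA1-null SMC3 list, 15.8% of intervals had one. At broad ring peaks (SA1-null SMC3 intervals with an SMC1 interval) that did have a wild-type interval the count was 384 of 1719, or 22.3% (interval 20.4 to 24.4%). The share at the broad new peaks was lower by 22.3 percentage points (difference -22.3, 95% Newcombe interval -24.4 to -20.3). With 0 SA2 intervals at the new peaks, the sign on each autosome was fixed wherever the other class had one, so autosomes add no support. The choice barred wild-type SA1 intervals, and 375 of these 384 peaks had one, so the contrast largely follows from the choice. Among intervals of 1000 to under 1200 bp, where widths are alike, SA2 was at 0 of 329 broad new peaks and at 211 of 850 with a wild-type interval.

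SA2 was also rare at broad positions that wild-type cells share, where these lack an SA interval. Broad ring peaks with a wild-type SMC1 or SMC3 interval but no wild-type SA interval had SA2 in SA1-null cells at 4 of 521 (0.768%, interval 0.299 to 1.96%). The broad new peaks differed from these by -0.768 points, with an interval of -1.96 to 0.0888 that includes 0. Broad ring peaks with a wild-type SA1 interval, by contrast, had SA2 at 375 of 1179 (31.8%, interval 29.2 to 34.5%). Those with wild-type SA1 but neither wild-type SMC1 nor SMC3 had it at 1 of 115 (0.870%, interval 0.154 to 4.76%). Narrow new ring peaks, those under 1000 bp, had SA2 at 6 of 6220 (0.0965%), and the difference of -0.0965 points (interval -0.210 to 0.622) also includes 0. The SA1-null SA2 list holds 6352 intervals against 34802 for SMC3, and it is named against another input, so a position without an SA2 interval is not shown to lack SA2.

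**Figure D1:**
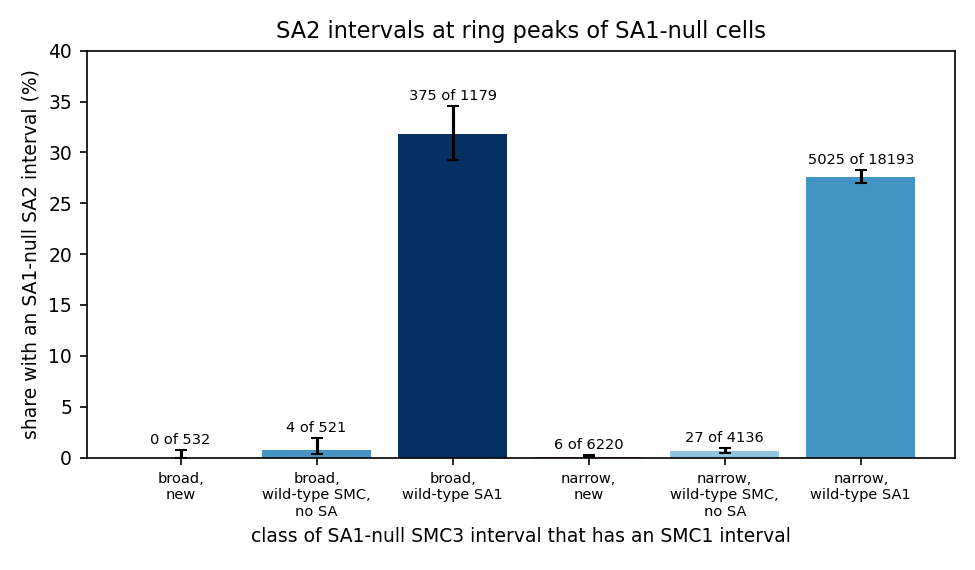
Share of SA1-null ring peaks with an SA1-null SA2 interval (y axis, percent) in 6 classes, with broad classes on the left and narrow ones on the right; error bars are 95% Wilson intervals and the numbers above the bars are counts. The broad new class stands at 0 of 532, and the other classes without a wild-type SA interval at 0.768% or less, while classes with wild-type SA1 reach 31.8% (broad) and 27.6% (narrow).

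The nearest SA1-null SA2 interval lay more than 50 kb from most broad new peaks. The distance had a median of 112 kb (interval of the median 95.8 to 127 kb) at broad new peaks, 89.0 kb (86.2 to 92.4 kb) at narrow new peaks and 66.8 kb (60.1 to 73.7 kb) at broad peaks with a wild-type interval. SA2 was called within 50 kb of 134 broad new peaks (25.2%) and of 1898 narrow new peaks (30.5%), a difference of -5.33 points (interval -9.01 to -1.31) that had the same sign on 13 of 19 autosomes. Against narrow new peaks of 800 to under 1000 bp, at 26.9%, the difference was -1.73 points (interval -6.44 to 3.12). The interval excludes 0 against all narrow new peaks and includes it against those nearest in width. Broad ring peaks with a wild-type SMC1 or SMC3 interval and no wild-type SA interval had a median of 101 kb (89.5 to 113 kb). SA2 was called within 50 kb of 27.8% of them, and the difference of -2.64 points (interval -7.96 to 2.69) includes 0.

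No broad new peak overlapped either input list or the SA1-null SA1 list, which are the measures of enrichment without the target protein. Narrow new peaks had 1 such overlap in 6220, and broad peaks with a wild-type interval had 4 in 1719 (0.233%). Narrow peaks with a wild-type interval had 15 in 22428 (0.0669%). Most such overlaps thus fell at positions with a wild-type interval, which the choice excluded. Such positions also make up 24147 of the 30899 ring peaks. The Wilson interval for 0 of 532, 0 to 0.717%, includes the shares of the other classes. Overlaps this rare cannot set the broad new peaks apart, so the 0 does not show that they are free of background enrichment. The nearest approach of a broad new peak was 544 bp and 6.99 kb to the input lists and, on the chromosomes where it has intervals, 173 kb to the SA1-null SA1 list.

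Most broad new peaks were little wider than the threshold. Their SMC3 widths ran from 1000 to 4063 bp, with quartiles of 1060 and 1304 bp around a median of 1149 bp, and 329 of them (61.8%) were under 1200 bp. Only 47 reached 1500 bp and 5 reached 2000 bp. Broad peaks with a wild-type interval ran from 1000 to 8986 bp with a median of 1203 bp, and 290 of the 1719 reached 1500 bp. Just inside the threshold lay intervals of 1000, 1000 and 1002 bp on chromosomes 1, 5 and 11, with SMC1 intervals of 827, 1039 and 834 bp. Just outside lay new intervals of 998 bp on chromosomes 19 and 9, with SMC1 intervals of 782 and 756 bp, and an interval 1 bp wider on chromosome 16, with an SMC1 interval of 770 bp. The members and non-members named here thus had similar SMC3 widths, while each named member had a wider SMC1 interval than every named non-member. Over all new ring peaks, the widest SMC1 interval had a median of 896 bp at SMC3 widths of 1000 to under 1200 bp. It had a median of 753 bp at 800 to under 1000 bp.

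The share of ring peaks that were new did not follow width in one direction. No wild-type interval was present at 532 of 2251 broad ring peaks (23.6%, interval 21.9 to 25.4%) and at 6220 of 28648 narrow ones (21.7%, interval 21.2 to 22.2%). The background was 27.9% of all SA1-null SMC3 intervals, including those without SMC1. In finer classes of width the share was 34.3% at 400 to under 500 bp, 13.1% at 700 to under 800 bp, 29.8% at 900 to under 1000 bp, 27.9% at 1000 to under 1200 bp and 11.0% (20 of 182) at 1700 bp and above. New positions were thus most frequent under 500 bp and from 900 to under 1200 bp, with a low between them and another among the widest. Of ring peaks that were new, 7.88% were broad, and of those with a wild-type interval 7.12% were.

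**Figure D2:**
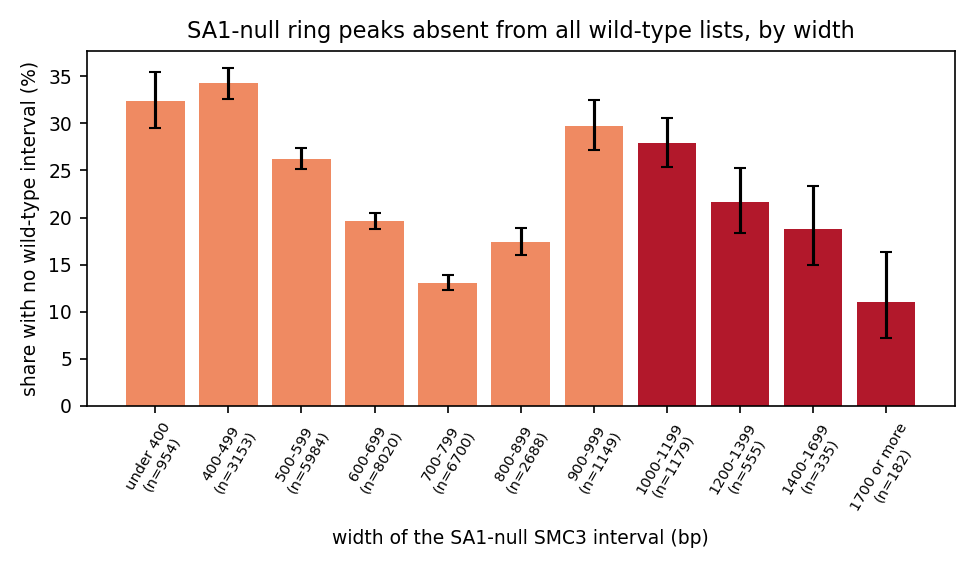
Share of SA1-null ring peaks with no interval in the 4 wild-type lists (y axis, percent) by the width of the SMC3 interval in bp (x axis, number of ring peaks in brackets); error bars are 95% Wilson intervals and darker bars are widths of 1000 bp or more. The share falls to 13.1% at 700 to under 800 bp, stands at 29.8% at 900 to under 1000 bp and ends at 11.0% among the widest.

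Broad intervals as such were more numerous in SA1-null than in wild-type lists of the ring. The SA1-null lists held 2312 SMC3 intervals (6.64% of the list) and 1986 SMC1 intervals (4.23%) of 1000 bp or more, against 121 (0.777%) and 505 (2.10%) in the wild-type lists. For SA2 the numbers were 32 in SA1-null cells, 11 of them on X, and 2 in wild-type cells. The SA1-null SMC1 list is named as 2 replicates together, unlike the wild-type SMC1 list. With depth also unknown, these numbers compare lists and not amounts of cohesin.

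SMC1 intervals were wider at broad than at narrow new peaks, but stayed under 1000 bp at most broad new peaks. The 532 peaks overlapped 598 SMC1 intervals, 1 each at 467 of them, 2 at 64 and 3 at 1. The widest SMC1 interval had a median of 932 bp (interval of the median 889 to 961 bp, range 378 to 3036 bp), against 547 bp (543 to 553 bp) at narrow new peaks and 995 bp (978 to 1014 bp) at broad peaks with a wild-type interval. It reached 1000 bp at 212 broad new peaks (39.8%) and at 301 narrow new peaks (4.84%), a difference of 35.0 points (interval 30.9 to 39.3) in the same direction on 19 of 19 autosomes. Against narrow new peaks of 800 to under 1000 bp, at 13.2% (107 of 810), the difference was 26.6 points (interval 21.9 to 31.4). SMC1 width played no part in the choice of the peaks, although it comes from the same cells.

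Against broad peaks with a wild-type interval, 49.3% of which had an SMC1 interval of 1000 bp or more, the broad new peaks stood 9.42 points lower (difference -9.42, interval -14.1 to -4.59). With SMC3 widths held to 1000 to under 1200 bp the shares were 35.9% (118 of 329) at new peaks and 34.0% (289 of 850) at peaks with a wild-type interval, and the difference of 1.87 points (interval -4.09 to 8.03) includes 0. A pair or more of SMC1 intervals under a single SMC3 interval was found at 65 broad new peaks (12.2%), at 86 narrow new peaks (1.38%) and at 284 broad peaks with a wild-type interval (16.5%). It was found at 31 of 810 narrow new peaks of 800 to under 1000 bp (3.83%). At 1000 to under 1200 bp it was found at 31 of 329 new peaks (9.42%) and at 68 of 850 with a wild-type interval (8%). The difference of 1.42 points (interval -1.95 to 5.42) includes 0. A longer SMC3 interval has more room for a second SMC1 interval. The higher share at broad than at narrow new peaks thus partly follows from the choice by width.

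SMC1 filled most of the SMC3 interval but rarely all of it. It covered a median of 78.4% of the SMC3 length (quartiles 60.7 and 91.2%), with 145 peaks covered to 90% or more and 71 to less than 50%. The median was 83.3% at narrow new peaks and 84.8% at broad peaks with a wild-type interval. At 1000 to under 1200 bp it was 80.5% (interval of the median 77.0 to 84.1%) at new peaks. With a wild-type interval it was 84.4% (82.8 to 85.6%) there. The centres of the SMC3 interval and its widest SMC1 interval lay a median of 139 bp apart. At 1000 to under 1200 bp this was 121 bp (104.5 to 150.5 bp) at new peaks and 81 bp (71 to 91 bp) with a wild-type interval. The SMC1 interval was the wider of the pair at 103 of the 532 peaks. Over the 532 peaks the widths in the SMC1 and SMC3 lists were weakly related (Spearman's rho 0.21 across regions, which are not independent replicates and share the cells they came from). At 6 peaks the SMC1 interval reached past the SMC3 interval into a wild-type interval.

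**Figure D3:**
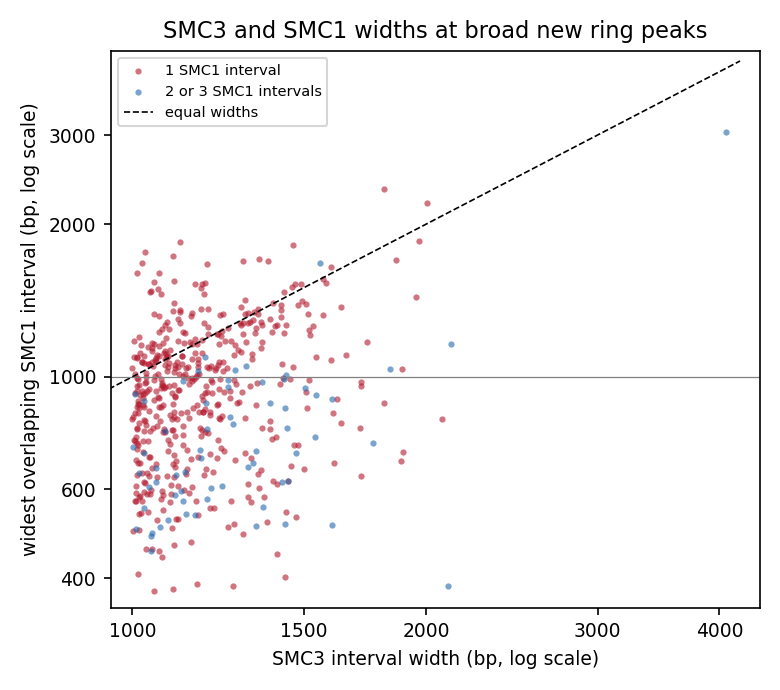
Width of the widest overlapping SMC1 interval (y axis, bp, log scale) against the width of the SMC3 interval (x axis, bp, log scale) at the 532 broad new peaks; each point is 1 peak, colour gives the number of SMC1 intervals, the dashed line marks equal widths and the grey line 1000 bp. Most points lie below the line of equal widths, and 212 lie at or above 1000 bp on the SMC1 axis.

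The widest of the broad new peaks stood apart from the rest. It lies on chromosome 6 from 117130075 to 117134137 (mm9), is 4063 bp wide and holds 2 SMC1 intervals, of which the wider measures 3036 bp. The nearest wild-type interval, for SMC1, is 5.58 kb away. Those of SMC3 and SA1 are 5.74 and 5.66 kb away, and the nearest SA1-null SA2 interval is 5.86 kb away, so a position with all of these subunits lies beside it.

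The next 4 by width differed in how much of them SMC1 covered. On chromosome 1 from 64802728 to 64804850, a 2123 bp SMC3 interval was covered to 93.4% by 2 SMC1 intervals. On chromosome 12 from 8505836 to 8507943, the SMC3 interval of 2108 bp was covered to 36.7%, and a wild-type SA1 interval lay 1.32 kb away. On chromosome 3 from 58057479 to 58059558, the interval of 2080 bp was covered to 39.8%, with the nearest wild-type interval 47.0 kb off. On chromosome 9 from 70088693 to 70090696, the interval of 2004 bp lay wholly within an SMC1 interval of 2203 bp. The first and last of these 4 were thus broad in both ring lists, and those on chromosomes 12 and 3, whose widest SMC1 intervals measured 387 and 827 bp, in the SMC3 list alone.

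The remaining 7 of the 12 widest measured 1970 to 1836 bp. In order of width they lie on chromosome 11 from 117824104 to 117826073, chromosome 1 from 14501612 to 14503563, chromosome 10 from 37797117 to 37799011, chromosome 16 from 95807018 to 95808906, chromosome 19 from 34328574 to 34330459, chromosome 13 from 113560506 to 113562367 and chromosome 11 from 100870347 to 100872182. Their widest SMC1 intervals ran from 681 bp, on chromosome 19, to 1852 bp, on chromosome 11. The distance to any wild-type interval ran from 4.14 kb, at the same chromosome 11 position, to 57.0 kb at the chromosome 1 position. An mm9 genome or gene annotation was not used here, so the peaks are not assigned to genes or promoters and no sequence is shown.

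Away from overlap, which the choice excluded, broad new peaks lay about as far from the nearest wild-type interval as narrow new peaks did. It was at a median of 13.7 kb (interval of the median 11.9 to 16.1 kb), against 13.4 kb (12.8 to 14.0 kb) for narrow new peaks. A wild-type interval lay within 1 kb of 40 broad new peaks (7.52%) and within 10 kb of 226 (42.5%). Wild-type SA1 lay within 10 kb of 139 broad new peaks (26.1%, interval 22.6 to 30.02%) and of 1817 narrow new peaks (29.2%), a difference of -3.08 points (interval -6.82 to 0.967) that includes 0. Wild-type SMC3 lay within 50 kb of 55.3% of broad new peaks and 63.1% of narrow new peaks, and this difference of -7.79 points (interval -12.2 to -3.45) excludes 0. Against narrow new peaks of 800 to under 1000 bp, at 60.5%, the difference was -5.23 points (interval -10.6 to 0.157).

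The 5 peaks farthest from any wild-type interval were 151 to 176 kb away. They lie on chromosome 13 from 26826782 to 26827983, chromosome 5 from 132186772 to 132188096, chromosome 1 from 14299406 to 14300972 and from 14296946 to 14298012, and chromosome 18 from 58433100 to 58434370. Their SMC3 widths ran from 1067 to 1567 bp. The pair on chromosome 1 is separated by 1.39 kb, with another SA1-null SMC3 interval 0.344 kb or less from each, so these are neighbouring parts of 1 region. The peak on chromosome 13 also had no other SA1-null SMC3 interval within 176 kb.

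Broad new peaks had another SA1-null SMC3 interval close by more often than narrow new peaks did. Its distance had a median of 6.53 kb (interval of the median 5.59 to 7.43 kb), against 9.58 kb (9.15 to 10.1 kb) for narrow new peaks. It lay within 10 kb of 329 broad new peaks (61.8%) and of 3172 narrow new peaks (51.0%), a difference of 10.8 points (interval 6.47 to 15.1) seen on 15 of 19 autosomes. Broad peaks with a wild-type interval had 57.5%, and here the difference of 4.37 points (interval -0.429 to 9.03) includes 0. With SMC3 widths held to 1000 to under 1200 bp the shares were 62.6% at new peaks and 54.0% at peaks with a wild-type interval, and this difference of 8.61 points (interval 2.32 to 14.7) excludes 0. Against broad ring peaks with a wild-type SMC1 or SMC3 interval and no wild-type SA interval, at 55.5%, the difference was 6.37 points (interval 0.424 to 12.3).

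They were also grouped with one another along the chromosomes. A second broad new peak lay within 100 kb of 132 of the 532 (24.8%, interval 21.3 to 28.7%). A broad new peak lay within the same distance of 934 of 6220 narrow new peaks (15.0%) and of 313 of 1719 broad peaks with a wild-type interval (18.2%). The broad new peaks stood 9.80 points (interval 6.20 to 13.7, higher on 14 of 19 autosomes) above the first class and 6.60 points (interval 2.64 to 10.8, higher on 15 of 19) above the second. Closeness among broad new peaks is mutual, so a pair counts for both of its peaks and these intervals are too narrow. Against narrow new peaks of 800 to under 1000 bp, at 19.6%, the difference was 5.18 points (interval 0.667 to 9.82). Of narrow ring peaks with a wild-type interval, 6.64% had a broad new peak within 100 kb. Against broad ring peaks with a wild-type SMC1 or SMC3 interval and no wild-type SA interval, at 22.6%, the difference of 2.16 points (interval -2.98 to 7.28) includes 0.

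**Figure D4:**
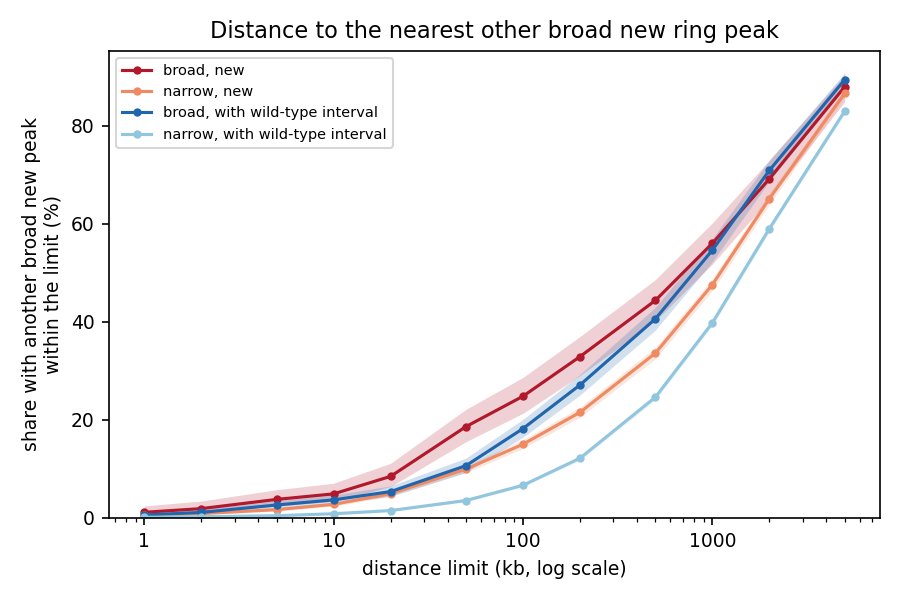
Share of ring peaks with another broad new peak within a distance limit (y axis, percent; x axis, kb, log scale) in 4 classes; bands are 95% Wilson intervals. At 100 kb the shares are 24.8% for broad new peaks, 15.0% for narrow new peaks, 18.2% for broad peaks with a wild-type interval and 6.64% for narrow ones with a wild-type interval.

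Joining peaks with gaps under 100 kb gave 58 groups with 132 members, of which 47 were pairs, 8 held 3 peaks, 2 held 4 and 1 held 6, and left 400 single peaks. The longest group lies on chromosome 8 from 129111768 to 129351129, spans 239 kb and holds 6 broad new peaks of 1008 to 1429 bp. In the same stretch the SA1-null SMC3 list has 25 intervals, of which 8 are narrow new ring peaks, 7 are broad and 2 narrow ring peaks with a wild-type interval, and 2 lack SMC1. The SA1-null lists have 34 SMC1 intervals and 1 SA2 interval there, and the wild-type lists have 12 SMC1, 5 SMC3, 7 SA1 and 0 SA2 intervals. This group is thus a stretch dense in ring intervals in both genotypes, in which broad new peaks stand among positions that wild-type cells share.

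The other long groups held fewer ring intervals between their ends. On chromosome 6 from 51958678 to 52109658, 3 broad new peaks of 1013 to 1074 bp span 151 kb, with 1 wild-type SMC1 interval and no wild-type SA1, SA2 or SMC3 interval between the ends. The SA1-null lists have 7 SMC3, 11 SMC1 and 0 SA2 intervals there. On chromosome 6 from 117125011 to 117274234, 4 broad new peaks span 149 kb, among them the widest of all. Wild-type cells have 1 interval each of SA2, SMC1 and SMC3 in that stretch and 0 of SA1, and SA1-null cells have 8 SMC3, 17 SMC1 and 0 SA2 intervals. Just outside this stretch, within 0.793 kb of its first member, lie wild-type SMC1, SA1 and SMC3 intervals and an SA1-null SA2 interval.

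Broad new peaks were spread over all autosomes and rare on chromosome X. Autosomes held 10 (chromosome 19) to 42 (chromosome 2) of them. Per 1000 ring peaks of the chromosome they numbered 17.6 ± 4.21 (SD, n = 19 autosomes), from 11.1 on chromosome 19 to 25.4 on chromosome 12. Their share among broad ring peaks was 23.4% ± 3.42 (SD, n = 19), from 17.9% on chromosome 18 to 29.6% on chromosome 6.

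Chromosome X held 1 broad new peak among 600 ring peaks, or 1.67 per 1000. Of the broad new peaks 0.188% were on X, against 1.24% of narrow new peaks (77 of 6220), a difference of -1.05 points (interval -1.39 to -0.147). Against narrow new peaks of 800 to under 1000 bp, at 0.988%, the difference of -0.800 points (interval -1.76 to 0.196) includes 0. Against broad peaks with a wild-type interval, at 0.349% (6 of 1719), the difference of -0.161 points (interval -0.600 to 0.728) also includes 0. In the ring lists broad intervals as such were few on X. They made up 1.14% of SA1-null SMC3 intervals on X (8 of 703), against 6.76% on autosomes, and 0.994% of SA1-null SMC1 intervals (9 of 905), against 4.29%. In wild-type cells they made up 0.206% of the SMC1 intervals on X (1 of 485), against 2.14% on autosomes. For wild-type SMC3 the share was 0.361% on X (1 of 277, interval 0.0638 to 2.02%), and the 0.785% on autosomes lies within that interval. The SA1-null SA2 list ran the other way, with 11 of 92 intervals broad on X (11.96%) and 21 of 6260 on autosomes (0.335%). Wild-type SA2 had 0 of 201 broad on X. Lists without the target protein also held many broad intervals on X. These were 33 of 99 (33.3%) for SA1-null SA1, and 20 of 83 (24.1%) and 5 of 26 (19.2%) for the inputs. On autosomes these lists had 38.5%, 19.3% and 18.7%. Whether the broad SA2 intervals on X are background enrichment was not tested. The sex of the embryos is not stated, and its part in these values was not tested.

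**Figure D5:**
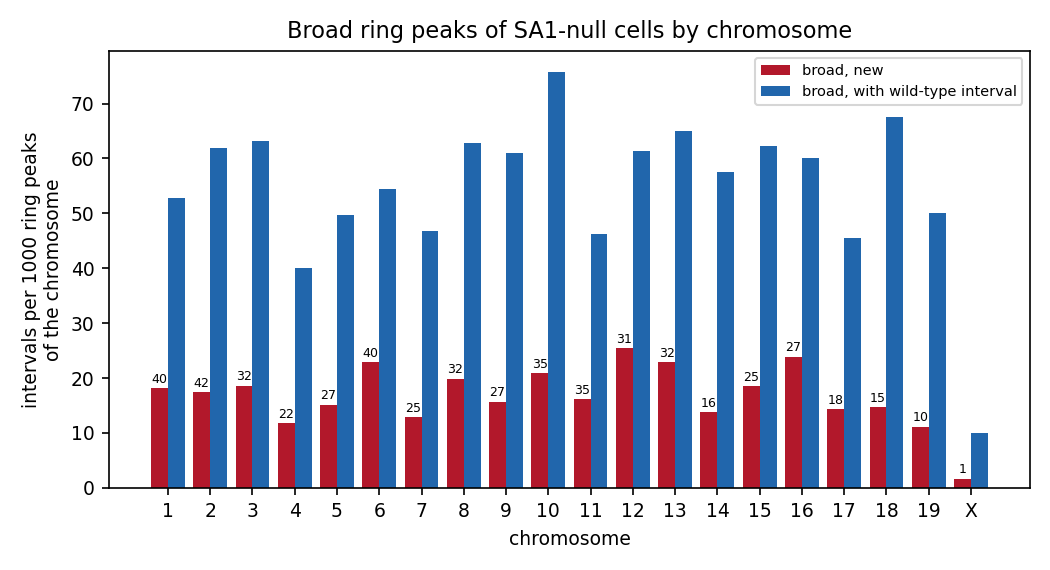
Broad ring peaks of SA1-null cells per 1000 ring peaks of each chromosome (y axis; x axis, chromosome), new ones on the left and those with a wild-type interval on the right of each pair; the numbers above the bars are counts of broad new peaks. New peaks stand between 11.1 and 25.4 per 1000 on autosomes and at 1.67 on X.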

How the data were processed

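The 11 samples have 10 lists, 8 from immunoprecipitations and 2 from input, in which the authors deposited chromosome, start and end of each interval. The submitters' processing notes name mm9 and CASAVA 1.7. No aligner or caller is given in the sources used here. List names give a false discovery rate of 10 and, for SA1-null SMC1, 2 replicates together. The SA2 lists and wild-type SA1 are named against one input, and SA1-null SA1, SMC1 and SMC3 against the other. A GRCm38.p6 gene table was at hand, but intervals ended beyond its last gene on 10 of 20 chromosomes, so its coordinates were not used. Starts are printed 1-based.

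Overlaps of 1 bp and gaps between edges were computed with Python 3.11.15, numpy 2.4.6 and pandas 2.3.3. Planted partners, which were copies of 1000 SA1-null SMC3 intervals shifted by 100 bp, were recovered to 100%, a check of the code alone. Overlap counts equalled those of bedtools 2.31.1 for 100 list pairs. Shares carry 95% Wilson intervals, differences Newcombe intervals (statsmodels 0.14.6) and medians binomial order-statistic intervals. All cover counting of regions within these lists, not other cultures. Of 39 differences computed, 22 had an interval that excludes 0, with no correction for their number. Members, classes and comparisons were chosen with earlier results of these data known. Named positions were, by rule, the 12 widest, up to 5 with SA2 (there were 0), the 5 farthest from wild-type intervals, the 3 longest groups and those at the width threshold. Alternatives varied the overlap, merging, width, wild-type lists, chromosomes and distance limits.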

Additional observations from a re-analysis of the deposited data

How the results depend on the processing

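The number of broad new peaks, 532 as reported, was 1342 with a width minimum of 800 bp, 47 with 1500 bp, 212 where SMC1 also had to reach 1000 bp, and 851 without the wild-type SMC1 list in the rule. It stayed within 1.5 times under the other 8 settings. The share of broad ring peaks that were new, 23.6%, was 18.7% with intervals closer than 1000 bp merged, 13.9% at 1500 bp or more, 21.9% with no wild-type interval allowed within 1000 bp, 20.0% with broad SMC1, 28.3% without the wild-type SA1 list and 37.8% without the wild-type SMC1 list. The share with SA2, 0%, was 0.151% (1 of 663) with merging and 0% under the other 11 settings. The SA2 difference from broad peaks with a wild-type interval went to -0.768 points, with 0 in its interval, against those without wild-type SA; the comparison class itself was changed there. The share near wild-type SA1 was 16.4% at 5 kb and 71.6% at 50 kb, and the share near another broad new peak was 4.89% at 10 kb, as shorter or longer limits must give. Leaving out wild-type lists and the class without wild-type SA were chosen after seeing the data. No replicate could be left out, since each group has 1 list. No paired analysis was possible because the 2 SMC1 replicates share a list and no other group has replicate numbers. Depth is unknown and limits every count.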
